A study of Homo sapiens with 4 samples.

Results

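A set of 8 human genes named for endogenous retroviruses was followed in HML58-3 cells treated with DNA-demethylating drugs. The genes were *ERVW-1*, *ERVFRD-1*, *ERV3-1*, *ERVMER34-1*, *ERVH48-1*, *ERVV-1*, *ERVV-2* and *HHLA1*, and their probes were taken as the array probes whose RefSeq accession belongs to one of them. This gave 10 probes for 6 of the 8 genes, of 58200 gene probes and 25006 named genes on the array. No probe was matched by accession to *ERVH48-1* or *ERVV-1*, so that neither has a value here.

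HML58-3 is a derivative of HCT116, a colorectal cancer cell line, and carries luciferase behind the methylated promoter of *UCHL1*. The cells were treated with mock, DAC (decitabine, a nucleoside analogue that inhibits DNA methyltransferases), or OR-2003 or OR-2100, which are prodrugs of DAC. The drugs were given at 1 µM on day 1 and RNA was taken on day 5, and all 3 had been dissolved in DMSO. What the mock medium contained is not given in the sources used here. RNA of each condition was hybridized to 1 one-colour Agilent expression array. No condition was repeated, which leaves every difference without a replicate check or a p-value. HML58-3 is a single cell line, and less RNA per cell cannot be told apart from fewer cells expressing a gene.

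Endogenous retroviruses are remains of germline infections, and most of their genes have decayed. In some copies the envelope gene, *env*, has kept a reading frame that serves the host. Envelope proteins of this kind fuse cells or modulate fusion, mainly in the placenta, and in most other tissues the long terminal repeats that drive them are held silent by DNA and histone methylation. *ERVW-1* encodes syncytin-1 and *ERVFRD-1* syncytin-2, which fuse trophoblast cells into the syncytiotrophoblast, the outer layer of the placenta. *ERVH48-1* encodes suppressyn, a secreted protein that blocks syncytin-1. *ERV3-1* carries an envelope reading frame that is cut short, *ERVMER34-1* encodes the shed envelope protein HEMO, and *ERVV-1* and *ERVV-2* are a closely similar placental pair. *HHLA1* is no envelope gene. It is named for a retroviral long terminal repeat beside it, and the term envelope gene does not hold for it.

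DNA methylation in human cells lies mainly on CG pairs, and these drugs act on it, so the bases in front of the members measured well above background are shown. RefSeq promoter windows (GRCh38.p14) were matched by symbol for 4 of the 8 genes, and gave 5 windows, each cut to the 250 bases before the transcript start. The windows at the outermost starts of *ERVMER34-1* (chr4:52751426-52751675, minus strand) and *ERV3-1* (chr7:65006688-65006937, minus strand) follow, 5′ to 3′ on the gene's strand, with each CG pair in capitals. CG reads the same on both strands.
ERVMER34-1: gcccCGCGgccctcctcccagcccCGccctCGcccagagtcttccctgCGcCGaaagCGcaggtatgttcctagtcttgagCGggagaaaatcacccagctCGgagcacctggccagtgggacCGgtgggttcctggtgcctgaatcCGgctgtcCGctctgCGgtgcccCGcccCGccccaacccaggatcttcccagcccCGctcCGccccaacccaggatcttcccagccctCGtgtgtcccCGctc
ERV3-1: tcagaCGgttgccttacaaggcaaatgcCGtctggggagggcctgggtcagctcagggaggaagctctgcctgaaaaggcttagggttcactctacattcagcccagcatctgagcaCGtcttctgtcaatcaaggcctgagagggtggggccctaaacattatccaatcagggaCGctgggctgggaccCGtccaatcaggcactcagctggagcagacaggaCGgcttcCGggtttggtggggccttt

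The *ERVMER34-1* window held 19 CG pairs and its G and C content was 69.6%. The *ERV3-1* window held 7 CG pairs at 58.0% G and C. Across 35116 RefSeq windows of the same length the median was 11 CG pairs, and 93.9% held at least 1. As many CG pairs as in the *ERVMER34-1* window were found in 34.6% of all windows, and as many as in the *ERV3-1* window in 58.9%. The other matched windows were poorer in CG, with 3 pairs at an inner start of *ERV3-1*, 4 at *ERVW-1* and 3 at *ERVV-1*. Methylation of these windows was not analysed here.

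Values are given as intensity in arbitrary units and as level, the log2 intensity minus the 75th percentile over the gene probes on its array. A probe was called induced where it exceeded mock 2-fold or more with a level of -1 or more with the drug, and reduced in the mirror image. The spread between replicate spots stood in for the missing replicate error. It was taken from 300 probes printed 10 times on each array, at the nearest levels, and is given as the SD of a log2 difference between arrays. It holds the error of printing and hybridization within an array and none between cultures.

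Of the 10 probes, 5 were well above background on all 4 arrays, 1 for *ERV3-1* and 4 for *ERVMER34-1*. The other 5, for *ERVW-1*, *ERVFRD-1*, *ERVV-2* and *HHLA1*, were not well above background on any array. On the arrays as a whole, between 31601 and 33282 probes were well above background, no spot was saturated, and no spot of the 10 probes was marked as an outlier. Of 8 colon epithelial markers, 7 were well above background on all arrays, with *VIL1* below it on the mock array. They summed to 199226 with mock and 268734 to 297246 with the drugs, and *EPCAM* and *CDH1* were called reduced with each drug. Of the 5 syncytiotrophoblast markers, 3 were well above background on all arrays and *CGA*, a subunit of chorionic gonadotropin, on none. Their summed intensity was 226 on the mock array and between 691 and 715 with the drugs. Of it, *CSH1* made up 70.0 with mock and 370 to 412 with the drugs, while *GCM1* read 25.8 to 32.5 on all arrays. Leukocyte markers summed to between 56.6 and 68.6 on all arrays. Endothelial markers summed to 77.2 with mock and 397 to 426 with the drugs, and fibroblast markers to 334 and 665 to 740. Within these lists *CDH5* read 37.7 with mock and 26.2 to 42.0 with the drugs, and *PDGFRB* read 24.7 and 13.5 to 22.1. The part of other cell types in the results was not tested.

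**Figure D1:**
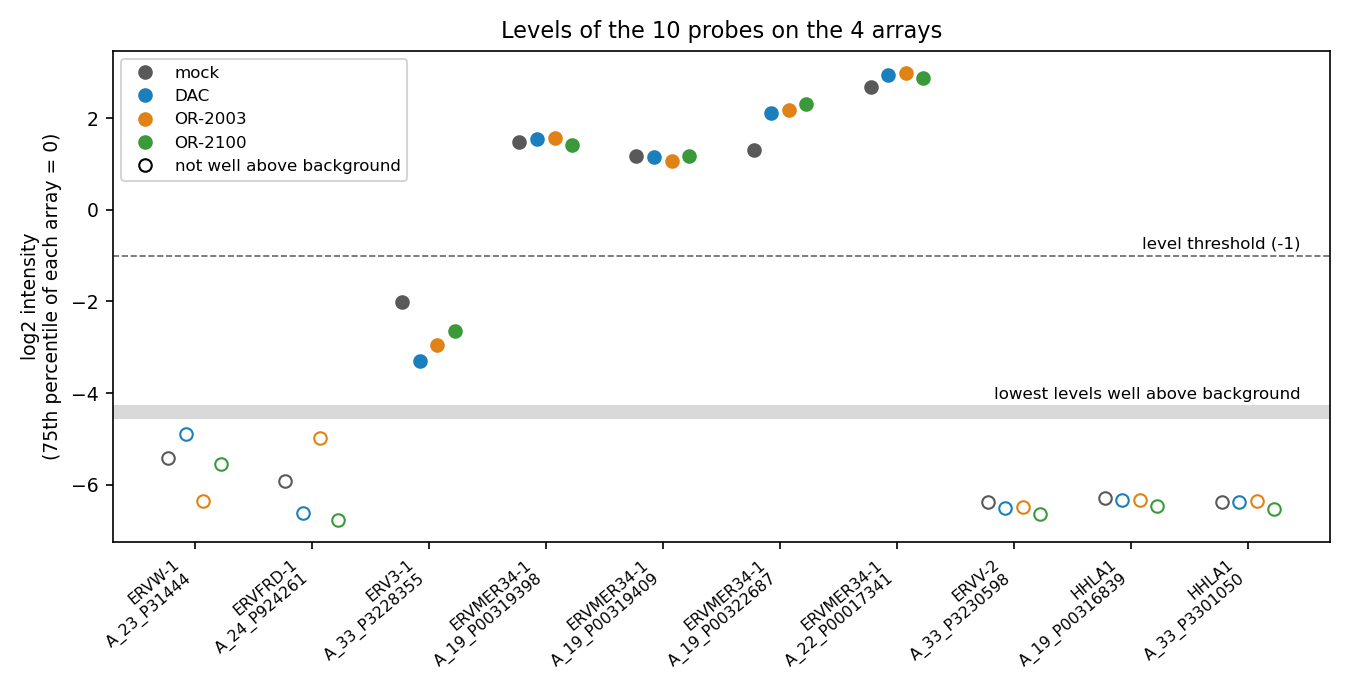
Level of each of the 10 probes (log2 intensity, 75th percentile of each array set to 0) on the mock, DAC, OR-2003 and OR-2100 arrays. Filled points are well above background, open points are not. The 4 *ERVMER34-1* probes and the *ERV3-1* probe are filled on all arrays and the other 5 are open on all.

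The syncytin genes were not measurable in these cells, with or without drug. The *ERVW-1* probe read 3.55 with mock, 5.98 with DAC, 2.04 with OR-2003 and 3.75 with OR-2100. The lowest intensity well above background was 7.81, 8.26, 7.97 and 7.496 on these arrays, so that all 4 values lay under it. The *ERVFRD-1* probe read 2.53, 1.79, 5.31 and 1.61 in the same order. Its highest value was with OR-2003, whereas that of *ERVW-1* was with DAC, and both lay within the range of the negative control spots of their array. The highest of the 308 negative control spots read 7.41 on the DAC array and 5.44 on the OR-2003 array. No fold is given for probes below background on every array.

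*ERVV-2* and *HHLA1* were at the level of the negative controls. The *ERVV-2* probe read 1.84, 1.94, 1.87 and 1.77 on the mock, DAC, OR-2003 and OR-2100 arrays. The medians of the negative control spots were 1.84, 2.01, 1.92 and 1.81. The *HHLA1* probes read 1.95 and 1.85 with mock, 2.20 and 2.11 with DAC, 2.07 and 2.02 with OR-2003, and 1.99 and 1.89 with OR-2100. All 12 of these readings lay under the 95th percentile of the negative control spots, which was 2.07, 2.30, 2.19 and 2.06. An intensity under the limit was not detectable on these arrays, which does not show that the transcripts were absent.

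**Figure D2:**
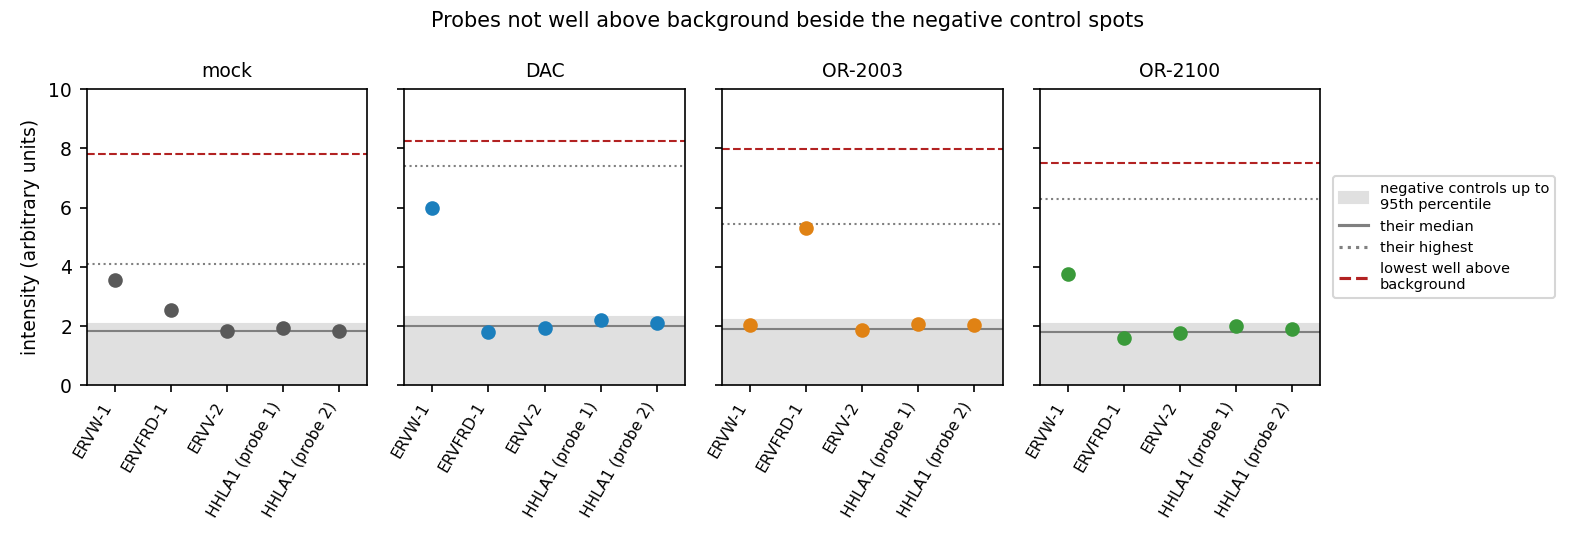
Intensity (arbitrary units, linear axis) of the 5 probes not well above background, 1 panel for each array. The grey band ends at the 95th percentile of the negative control spots, the solid and dotted lines are their median and highest value, and the red dashed line is the lowest intensity well above background, which no point reaches.

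All 4 probes of *ERVMER34-1* were well above background on every array, and 2 of them were higher on each drug array than on the mock array. Probe A_19_P00322687 read 378 with mock, 767 with DAC, 749 with OR-2003 and 873 with OR-2100. Its level was 1.31 with mock and 2.12, 2.17 and 2.31 with the drugs. The log2 difference from mock was 0.81 with DAC, 0.86 with OR-2003 and 1.00 with OR-2100, each with a spot SD of 0.10. These are 1.75-fold, 1.81-fold and 2.002-fold. Probe A_22_P00017341, the brightest of the gene, read 975 with mock and 1359, 1314 and 1292 with the drugs. Its log2 differences were 0.27, 0.30 and 0.20 with a spot SD of 0.09, or 1.20-fold, 1.23-fold and 1.15-fold. With median scaling they fell to 0.15, 0.08 and 0.11, each under 2 of these spot SDs. The 75th percentile of bright probes raised them to 0.47, 0.51 and 0.42, and quantile normalization to 0.43, 0.47 and 0.41.

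The other *ERVMER34-1* probes stayed near their mock level. A_19_P00319398 read 424 with mock and 514, 494 and 471 with the drugs, and its log2 differences of 0.07, 0.09 and -0.06 were smaller than their spot SD of 0.11. A_19_P00319409 read 342 with mock and 389, 348 and 395 with the drugs, with log2 differences of -0.02, -0.10 and -0.00027 and a spot SD of 0.10 to 0.11. The direction of these small differences is not settled, since scaling by the median or by the 75th percentile of bright probes turned some of them.

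The files list the 2 higher probes under NM_001242690 and the 2 others under NM_024534, both transcripts of *ERVMER34-1*. Which exons each probe reads is not given in the files used here, so that this split by transcript is a label only. The range over the 4 probes was 0.83 with DAC, 0.96 with OR-2003 and 1.06 with OR-2100 on the log2 scale. Among the 144 genes with 4 probes well above background, the median range was 0.81, 0.83 and 0.83. A range as wide as that of *ERVMER34-1* was found in 48.6%, 40.3% and 37.5% of them, so the disagreement between its probes was of an ordinary size on these arrays.

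*ERV3-1* was lower on every drug array. Its probe, A_33_P3228355, read 38.1 with mock, 17.9 with DAC, 21.4 with OR-2003 and 28.0 with OR-2100, which is 47.1%, 56.2% and 73.6% of the mock intensity before scaling. The level was -2.001 with mock and -3.30, -2.96 and -2.65 with the drugs. The log2 differences were -1.30 (spot SD 0.36), -0.96 (0.34) and -0.65 (0.33), that is 40.7%, 51.5% and 63.8% of mock after scaling. The differences with DAC and OR-2003 were larger than 2 spot SDs and that with OR-2100 was not. The median of all 27921 probes well above background was itself -0.21, -0.19 and -0.23, and relative to it *ERV3-1* differed by -1.09, -0.77 and -0.42. The probe was dim, under the level of -1 that a call of reduced requires. Normexp background correction, whose added offset shrinks differences of dim probes by design, brought the differences to -0.54, -0.35 and -0.35.

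By the thresholds, 0 of the 10 probes were induced with DAC, 0 with OR-2003 and 1 with OR-2100, against 3.44%, 3.53% and 3.5% of all gene probes. No probe was reduced with any drug, against 4.03%, 4.06% and 4.49%. None was induced with all 3 drugs, where 3.13% of all gene probes were, and none reduced, against 3.41%. The one call was A_19_P00322687 of *ERVMER34-1* with OR-2100, which lay on the threshold and fell under it with normexp, at 1.996-fold. With the 75th percentile of bright probes the same probe was called with each drug, at 2.01-fold, 2.09-fold and 2.34-fold. With median scaling it was called with none, at 1.62-fold, 1.55-fold and 1.88-fold. The median log2 difference of the 5 probes well above background was 0.07, 0.09 and -0.00027 for the drugs in the order above, beside the -0.21, -0.19 and -0.23 of all such probes.

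DAC and its prodrugs were compared with each other at the same dose and time, in 3 pairs of arrays over the 5 probes well above background. Under the main scaling, none of these 15 differences was larger than 2 spot SDs and 9 were within 1. Of the 15 differences from mock, 8 were larger than 2. Of the 5 probes 4 were of *ERVMER34-1*, and every difference from mock used the same mock array, so these counts are not of independent values. The log2 differences between drugs ran from -0.65 to 0.15. The largest was that of *ERV3-1* between DAC and OR-2100, at -0.65 (spot SD 0.42). For *ERVMER34-1* probe A_19_P00322687, DAC was lower than OR-2100 by 0.19 on the log2 scale (spot SD 0.10), and OR-2003 and OR-2100 differed by -0.14 (spot SD 0.10). DAC minus OR-2100, at -1.98 spot SDs in the main run, passed 2 of these SDs under other processing. It was -0.22 with each of the 3 other scalings, and passed 2 with normexp as well. OR-2003 minus OR-2100 passed 2 with median scaling, at -0.28, and with normexp. For A_19_P00319409, OR-2003 minus OR-2100 passed 2 with median scaling, at -0.23 (spot SD 0.10). With 1 array for each drug these values do not show that the compounds act alike.

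The genes whose 3 differences lay nearest to those of A_19_P00322687, among 4110 with a like mock level, were *SNORD99*, *RIC8A* and *USP6*, at Euclidean distances of 0.045, 0.056 and 0.060 on the log2 scale over the 3 drugs. For A_22_P00017341 they were *SLC7A6OS*, *RALY-AS1* and *PELO* among 3929, at 0.0074, 0.028 and 0.030. Within a distance of 0.20 lay 42 genes for the first probe and 332 for the second.

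Transcripts of the receptors that these envelopes bind, and of *FURIN*, were well above background on all arrays. *SLC1A5* encodes the amino acid transporter that is the syncytin-1 and suppressyn receptor, and it read 1479 with mock and 730, 684 and 739 after treatment with the drugs. Its log2 differences were -1.23, -1.24 and -1.21 (spot SD 0.09), and it was called reduced with each drug. *SLC1A4*, the related transporter that syncytin-1 can also use, read 48.9 with mock and 11.2, 12.4 and 10.4 with the drugs. Its differences of -2.34, -2.10 and -2.44 were over 2-fold, but its mock level of -1.64 was too low for a call. Normexp, whose added offset shrinks differences of dim probes by design, brought these differences to -0.71, -0.66 and -0.74, under 2-fold. *MFSD2A*, a lipid transporter and the syncytin-2 receptor, read 156 with mock and 552, 594 and 576 with the drugs, 3.05-fold, 3.48-fold and 3.20-fold higher, and was called induced with each. *FURIN*, a protease that cleaves envelope precursors, differed by -0.01, 0.08 and -0.01.

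With each drug, 1 of these 4 genes was thus induced and 1 reduced, where 5.77%, 5.89% and 5.81% of all named genes were induced and 5.96%, 6.05% and 6.82% reduced by their brightest probe. The median of the 4 was -0.62, -0.58 and -0.61, beside -0.18, -0.17 and -0.21 for all named genes well above background. Scaling by the 75th percentile of bright probes brought *SLC1A5* with OR-2100 to -0.98, under the threshold. The signs of *SLC1A5*, *SLC1A4* and *MFSD2A* were the same under every alternative run, and that of *FURIN* turned under some.

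Placental genes other than the envelopes were in part higher and in part lower with the drugs. Of 44 trophoblast genes 40 were on the array, with 22 well above background on all arrays and 11 on none. The same 8 were induced with each drug, where 5.27% of all named genes were induced with all 3 and 5.21% reduced. The number induced was 4 with each drug when arrays were scaled by the 75th percentile of bright probes, and 13, 11 and 13 with median scaling. The 8 were *CSH1*, *HSD17B1*, *PLAC1*, *PLAC8*, *XAGE3*, *PGF*, *SDC1* and *TEAD4*. *HSD17B1*, which makes oestradiol, was 11.0-fold, 10.8-fold and 10.7-fold higher, and *PGF*, placental growth factor, 4.34-fold, 4.38-fold and 4.41-fold. *CSH1*, placental lactogen, was 5.08-fold, 5.00-fold and 4.58-fold higher, but shares near-identical sequence with *CSH2* and *GH2*, so that its value is uncertain. *PPARG*, a nuclear receptor, was called reduced with OR-2003 and OR-2100, at -1.04 and -1.02, and this call was lost with the 75th percentile of bright probes, normexp and quantile normalization. *GCM1*, the factor that drives the syncytin genes in trophoblast, read 25.8 with mock and 30.7, 25.8 and 32.5 with the drugs, and its differences of 0.04, -0.12 and 0.13 were smaller than their spot SDs of 0.34 to 0.38. The list's median was 0.35, 0.47 and 0.16 over the 40 genes, beside -0.11, -0.09 and -0.23 for all named genes. Over the 22 well above background it was 0.35, 0.47 and 0.33, beside -0.18, -0.17 and -0.21 for all such named genes.

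Of 28 genes that hold retroelements silent 27 were on the array, all well above background. Their median was -0.20, -0.25 and -0.30, beside -0.18, -0.17 and -0.21 for all named genes well above background. With DAC, OR-2003 and then OR-2100, 1, 1 and 0 of the 27 were induced and 2, 2 and 3 reduced, where 5.77%, 5.89% and 5.81% of all named genes were induced and 5.96%, 6.05% and 6.82% reduced. *CBX3*, a heterochromatin protein, was called induced with DAC and OR-2003, at 1.05 and 1.00, and read 0.76 with OR-2100. *ATRX*, a chromatin remodeller, was reduced with each drug, at -1.08, -1.09 and -1.21 by the brightest of its 4 probes, and its smallest differences over the probes were -0.57, -0.81 and -0.80. *CBX5*, another heterochromatin protein, was reduced at -1.65, -1.63 and -1.69 by its brightest probe, but its other probe gave 0.06, 0.02 and -0.13. *SUV39H1*, a histone methyltransferase, was reduced with OR-2100 at -1.09. *SETDB1*, which works with *TRIM28* at retroviral repeats, differed by -0.70, -0.71 and -0.74 by the brightest of its 3 probes and by -0.0049, -0.03 and -0.11 by the highest, and was not called. *DNMT3A*, a DNA methyltransferase, was not called by the brightest of its 3 probes, at 0.19, 0.12 and 0.23, but the highest gave 1.79, 2.16 and 1.89. *TRIM28* differed by -0.22, -0.28 and -0.30.

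Among other host genes that come from or lie beside retroelements, a few were much higher with the drugs. Of 25 listed, 17 were on the array, 11 were well above background on all arrays and 4 on none. With each drug 5 of the 17 were induced and 1 reduced, where 5.77%, 5.89% and 5.81% of all named genes were induced and 5.96%, 6.05% and 6.82% reduced. The median of the 17 was -0.11, -0.08 and -0.0079, beside -0.11, -0.09 and -0.23 for all named genes. *L1TD1*, which derives from a LINE-1 open reading frame, read 13.0 with mock and 1735, 1627 and 1823 with the drugs, a log2 difference of 6.84, 6.84 and 6.92 that normexp brought to between 4.24 and 4.30. *PEG10*, an imprinted gene from a retrotransposon gag and pol, was higher by 2.30, 2.23 and 2.31. *RTL5* was higher by 1.44, 1.57 and 1.30, and *ARC*, a neuronal capsid-forming gene of like origin, by 1.46, 1.499 and 1.57. *LDOC1* was not well above background with mock and was at least 32.3-fold, 30.7-fold and 28.1-fold higher, taken against the lowest intensity well above background. With normexp its log2 difference was 2.75, 2.65 and 2.57. The offset added by normexp shrinks differences from mock values as dim as those of *L1TD1* and *LDOC1* by design. The normexp values therefore do not test the bounds of *LDOC1* or the size of the *L1TD1* difference. *RTL8A* was the one called reduced, at -1.34, -1.37 and -1.43.

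Retroviral repeats share their surroundings with other genes, and the nearest genes with a probe, up to 2 on each side, were read for each of the 8 members. Of these 28 genes, 20 were well above background on all arrays. The median log2 difference of these 20 was 0.02, -0.0038 and -0.07. Of all 28, 3 were induced and 1 was reduced with each drug, where 5.77%, 5.89% and 5.81% of all named genes were induced and 5.96%, 6.05% and 6.82% reduced. The reduced one was *ZNF117*, a zinc finger gene that overlaps *ERV3-1* in the gene table. It read 113 with mock and 49.7, 58.4 and 61.2 with the drugs, with differences of -1.39, -1.07 and -1.09 (spot SD 0.15 to 0.17). Like *ERV3-1* it was lowest with DAC, and whether the pair shares signal was not tested. Normexp, whose offset of 50 shrinks differences at such intensities, brought *ZNF117* to -0.83, -0.70 and -0.75, under 2-fold. *ZNF92*, on the higher-coordinate side, differed by 0.11, 0.15 and -0.03. *ZNF273*, on the other side, has a pair of probes of opposite sign, at 0.49, 0.58 and 0.49 by the brighter and -0.20, -0.05 and -0.37 by the other.

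*RASL11B*, a small GTPase gene on the higher-coordinate side of *ERVMER34-1*, was induced at 2.14, 2.16 and 1.89. Normexp brought these differences to 0.95, 0.97 and 0.80, under 2-fold. Its offset shrinks differences from dim mock values, such as those of *RASL11B* and *CBS*, by design. *DANCR*, on the other side, differed by -0.21, -0.03 and -0.08 by its brighter probe and by -0.72, -0.70 and -0.87 by its other probe. *CBS*, near *ERVH48-1*, was induced at 6.47, 6.39 and 6.52, or 4.42, 4.32 and 4.47 with normexp, and its near-identical copy makes the value uncertain. *ZNF816*, beside *ERVV-1* and *ERVV-2*, was induced at 1.07, 1.05 and 1.00. *ZNF702P* and *ZNF415*, in the same cluster, were below background with mock and at least 4.495-fold, 4.75-fold and 4.29-fold, and at least 5.58-fold, 6.80-fold and 6.92-fold higher. *GATAD1*, which overlaps *ERVW-1*, was lower at -0.52, -0.59 and -0.47. With the 75th percentile of bright probes or with normexp, the neighbours induced numbered 1 and those reduced 0 with each drug.

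**Figure D3:**
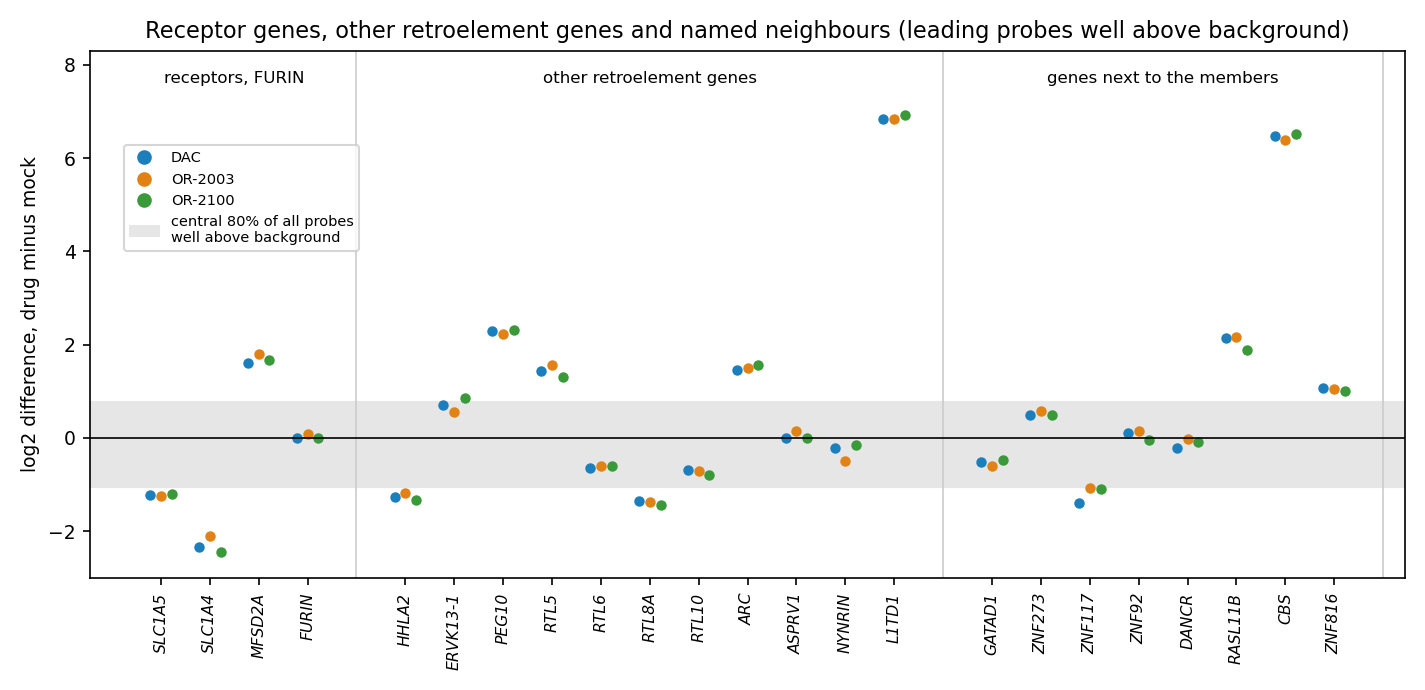
Log2 difference from the mock array, for DAC, OR-2003 and OR-2100, of the receptor genes and *FURIN*, of other genes from or next to retroelements, and of the genes next to the members that are named with a difference in the text. The grey band holds the central 80% of all probes well above background, and *L1TD1* and *CBS* lie furthest above it.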

How the data were processed

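Expression in mock-treated HML58-3 cells and in cells given one of 3 drugs was measured on 4 one-colour Agilent arrays, 1 for each condition. The deposited intensity of each spot had been background-corrected by the authors with Agilent Feature Extraction 12.1.0.3 and was not normalized between arrays, and the deposited series table held the same values. Spots marked as outliers were left out (52 to 98 gene spots an array), log2 intensity was averaged over the spots of a probe, and the 75th percentile over the gene probes was subtracted on each array, as in the study's methods. Scaling on a high percentile assumes that the upper part of the distribution is alike on all arrays. Probes were named by RefSeq accession through a RefSeq gene table (GRCh38.p14), which named 34892 of the 58200 gene probes. For gene lists the probe with the highest mean signal was used. Thresholds were 2-fold and a level of -1. Python 3.11.15, pandas 2.3.3, R 4.3.3 and limma 3.58.1 were used, and the counting was tested on simulated data.

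The members and lists were chosen with earlier results of these data known. Genes named from lists and neighbours were all those called and, where fewer than 5 were called, up to 5 with the largest mean difference. *GCM1*, *TRIM28*, *DNMT3A*, *ELF5*, *TFAP2A*, *PAPPA*, *HHLA2*, *ERVK13-1*, some neighbours that overlap or flank a member and some genes with lower bounds were named besides. The lower bounds of *GH2*, *PSG1*, *PSG9*, *HSD3B1* and *FLT1* were left out. The values of 1 neighbouring gene are not reported here. No test was possible with 1 array a condition, and the number of arrays limits the precision. Alternatives were 3 other scalings, normexp with an offset of 50, a floor at the background limit, marked spots kept, the series table, other thresholds and other ways to choose probes. The normexp offset is added to every spot, so it shrinks the log2 differences of dim probes by design. Those for lists, neighbours and other genes were added after seeing the data. Normexp was planned on the mean spot intensity and was run on the deposited median spot intensity.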

Additional observations from a re-analysis of the deposited data

Results flagged for a closer look

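The *ERVMER34-1* probe A_19_P00319398 was higher than mock with DAC and OR-2003, by log2 differences of 0.067 and 0.095, and lower with OR-2100, at -0.055. The directions differ between drugs. The difference was not tested, and each value lies within 1 SD between replicate spots.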

How the results depend on the processing

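Of 297 recomputed counts of calls and member medians, 243 were within 1.5 times or within the spot spread of the values reported, 54 moved, and none of the called values changed sign. Of 657 recomputed differences of single probes and genes and medians of lists, 162 moved by over 1 spot SD and none of the called ones changed sign. The median of all probes moved by over 0.1 with the 75th percentile of bright probes (0.20 with DAC, 0.20 with OR-2003, 0.22 with OR-2100), with median scaling (-0.12 and -0.22 with DAC and OR-2003) with quantile normalization (0.23 with OR-2100) and with the floor at the background limit (0.13, 0.10 and 0.25). The median of the trophoblast list with DAC ran from -0.03 to 0.55, and those of the other retroelement genes and of the neighbours changed sign under some alternatives. The member median recomputed here is over all 10 probes, those below background included. It was -0.02, -0.02 and -0.15 in the main run, and 0.18, 0.18 and 0.07 with the 75th percentile of bright probes.

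With the 75th percentile of bright probes, member probes induced numbered 1 with DAC and 1 with OR-2003, in place of 0. Receptor genes reduced with OR-2100 fell to 0. Trophoblast genes induced numbered 4 with each drug and reduced 0 with OR-2003 and OR-2100. Silencing genes reduced numbered 1 with each drug. Neighbours induced numbered 1 and reduced 0 with each drug. With median scaling, member probes reduced numbered 1 with DAC and 1 with OR-2003, the *ERV3-1* probe, and those induced with OR-2100 were 0. Receptor genes reduced numbered 2 with each drug. Trophoblast genes induced numbered 13 with DAC and OR-2100, and reduced 3, 5 and 4. Silencing genes induced numbered 0 with DAC and OR-2003. Other retroelement genes reduced numbered 2 with each drug, neighbours reduced 2 with each, and neighbours induced 5 with DAC. With normexp, member probes induced with OR-2100 were 0, trophoblast genes reduced 0 with OR-2003 and OR-2100, silencing genes reduced 1 with DAC, and neighbours induced 1 and reduced 0 with each drug. With quantile normalization, trophoblast genes reduced numbered 0 with OR-2003 and OR-2100, silencing genes reduced 1 with DAC and OR-2003, and silencing genes induced 1 with OR-2100. A 4-fold threshold left 0 member probes induced with OR-2100, and no level threshold gave 1 reduced with DAC. The level threshold of -1 was kept under each scaling. A change of scaling therefore moves the levels set against it as well as the differences. The share of each in these shifts was not tested.

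Leaving out an array was not possible with 1 array a condition. No paired analysis was possible because no condition had more than 1 array. The series table equals the scanner values and tests nothing. Signal over background limits *ERV3-1*, whose intensity was 2.17 to 4.88 times the lowest intensity well above background, and leaves *ERVW-1*, *ERVFRD-1*, *ERVV-2* and *HHLA1* without a value.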

Other observations

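A long non-coding RNA probe, lnc-ERV3-1-1:1, carries the name of *ERV3-1* but has no RefSeq accession of it, and was not counted among the 10 probes. It read 51.9 with mock, 44.1 with DAC, 38.8 with OR-2003 and 49.997 with OR-2100. Its log2 differences were -0.44, -0.54 and -0.26, with spot SDs of 0.21, 0.21 and 0.18. It was lower than mock on each drug array, and lowest with OR-2003, whereas the *ERV3-1* probe was lowest with DAC.

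Among listed genes below background with mock, *RTL8B*, a gene from a retrotransposon gag, read 1.58 with mock and 27.7, 27.7 and 31.6 after the drugs, at least 3.06-fold, 3.25-fold and 3.51-fold higher. *HHLA2*, a B7 family gene also named for a retroviral repeat, read 23.4 with mock and 11.3, 11.3 and 10.8 with the drugs. *ERVK13-1* differed by 0.70, 0.56 and 0.85 by the brightest of its 4 probes, and its smallest differences over the probes were 0.02, 0.0024 and 0.23. Both *HHLA2* and *ERVK13-1* lay under the level a call requires. *DLX3*, a trophoblast transcription factor gene, was below background with mock and at least 4.40-fold, 4.34-fold and 4.03-fold higher with the drugs.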
